A study of Mus musculus with 6 samples.

Results

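The 40 genes described here carry out DNA replication and the rest of S phase. They were taken by symbol from the deposited table of 47643 genes, each symbol matched 1 row, and all 40 were among the 17012 genes tested. They come from liver tumors of FVB/N mice that carry LAP-tTA and tetO-MYC. In this system a liver promoter drives the tetracycline transactivator, mainly in hepatocytes, and the MYC transgene stays off while doxycycline is given. All mice had doxycycline at 100 mg/L in drinking water until 4 weeks of age and then 8 weeks with MYC on. They next received GSK3326595 at 50 mg/kg/day or vehicle for 2 weeks, with 3 libraries in each group. GSK3326595 inhibits PRMT5, an enzyme that adds symmetric dimethyl marks to arginines. Both groups therefore have MYC on, and no library without the transgene or without doxycycline withdrawal was part of the comparison. Sex is not labelled, and nothing ties a replicate number to an animal. Each p-value therefore reflects variation among these libraries, part of which may be technical.

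Replication begins with licensing, when the origin recognition complex, CDC6 and CDT1 load the ring of MCM2 to MCM7 onto DNA. CDC45 and the GINS complex turn that ring into the active helicase, primase and polymerase alpha start each strand, and polymerases delta and epsilon extend it on the PCNA clamp. Ribonucleotide reductase, thymidylate synthase and thymidine kinase supply the nucleotides, and CAF-1 packs new DNA onto histones. Many of these genes are switched on together at the start of S phase by the E2F transcription factors. Adult hepatocytes rarely divide, so in liver the transcripts of these genes are read as a sign of cycling cells.

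The promoters of these genes were searched first, because a shared E2F motif is the feature for which the group is best known. Promoter sequences came from RefSeq (build GRCm38.p6, the assembly called mm10 in the labels) and were found for 34 of the 40 genes. Each window held 250 bases before the start and 50 after it. The E2F motif was written as TTTCCCGC, TTTGGCGC, TTTCGCGC or TTTGCCGC, on either strand, with overlapping matches counted. It was present for 14 of the 34 genes, or 41.2%, for 16 of 48 other replication genes, for 1 of 26 mitosis genes and in 2.26% of all 32851 promoters. The CHR element of mitotic genes, written as TTTGAA or TTCGAA, was present for 6 of the 34 replication genes and 20 of the 26 mitosis genes, and in 19.2% of all promoters. The E-box CACGTG, a motif bound by MYC with MAX, was present for 5 of the 34 genes, against 7.15% of all promoters. It was present for 7 of the 48 other replication genes and 2 of the 26 mitosis genes. A gene was counted when any of its promoters held a match (39 promoters for the 34 genes), whereas the share of all promoters counts each promoter singly. Replication promoters had a median GC content of 61.3%, mitosis promoters of 59.8% and all promoters of 52.7%, and no share was adjusted for it.

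The 160 bases just before the start are shown for 4 members that hold an upstream E2F match: the most highly counted (Mcm6), the most variable (Cdc6), the one with the smallest p (Pola1) and another subunit of the same helicase ring (Mcm5). Capitals mark the E2F matches.
Mcm6 (chr1:128359706-128359865, minus strand): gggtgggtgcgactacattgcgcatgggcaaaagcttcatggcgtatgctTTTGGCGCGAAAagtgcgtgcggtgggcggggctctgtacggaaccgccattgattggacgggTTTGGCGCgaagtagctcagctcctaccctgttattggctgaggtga
Mcm5 (chr8:75109349-75109508, plus strand): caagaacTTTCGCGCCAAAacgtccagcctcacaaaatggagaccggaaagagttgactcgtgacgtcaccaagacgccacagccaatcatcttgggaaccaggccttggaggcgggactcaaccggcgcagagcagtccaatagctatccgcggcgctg
Cdc6 (chr11:98907991-98908150, plus strand): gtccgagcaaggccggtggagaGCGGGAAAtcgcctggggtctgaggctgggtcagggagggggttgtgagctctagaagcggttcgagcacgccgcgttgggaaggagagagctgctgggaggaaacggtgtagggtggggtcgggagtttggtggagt
Pola1 (chrX:93632156-93632315, minus strand): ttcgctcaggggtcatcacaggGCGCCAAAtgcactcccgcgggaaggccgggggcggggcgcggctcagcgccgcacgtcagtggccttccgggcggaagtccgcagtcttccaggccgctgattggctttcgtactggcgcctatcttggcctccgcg
Mcm6 held 3 matches, beginning 110, 106 and 47 bases before the start, and the first pair overlap as an inverted repeat. The Mcm5 pair, beginning 153 and 149 bases before the start, overlap in the same way. Cdc6 and Pola1 held 1 match each, both beginning 138 bases before the start. Starts are those of RefSeq. In GENCODE M21 the Cdc6 gene begins upstream of this start, so that its window lies inside the annotated gene. A match is a description of the letters and not a measured binding site.

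The libraries held 25814339 to 32427490 expected counts in GSK3326595 and 31480006 to 33621083 in vehicle. Single members had between 70 and 8172 counts in a library, so counting error was small beside the spread between libraries. Over all genes, GSK3326595 replicate 2 stood apart on the first principal component (38.1% of variance), with a score of 103.1 where the other 5 scored -50.2 to 9.37. Levels are given as CPM, counts per 1000000 after TMM scaling, which corrects for differences in library composition. Differences are log2 values of GSK3326595 minus vehicle from edgeR's quasi-likelihood test. Prmt5 itself had 51.3, 96.0 and 129.9 CPM in the GSK3326595 libraries and 69.9, 48.9 and 84.9 CPM in the vehicle libraries, a log2 difference of 0.44 ± 0.37 (SE; adjusted p = 0.753 by edgeR), and since the drug blocks the enzyme its transcript does not check the treatment. The mouse Myc row had 3.58, 3.19 and 1.84 CPM in the GSK3326595 libraries and 3.66, 8.91 and 2.74 CPM in the vehicle libraries (log2 difference -0.83 ± 0.52, SE; adjusted p = 0.665 by edgeR), and the transgene was not analysed here. Hepatocyte markers were present in every library: Hnf4a, which encodes a master regulator of the hepatocyte programme, had 484, 521 and 412 CPM in the GSK3326595 libraries and 541, 525 and 498 CPM in the vehicle libraries. Markers of T cells summed to 4.15 to 13.6 CPM in GSK3326595 and 0.985 to 1.90 CPM in vehicle. The 5 of the 8 that passed the filter did so through their counts in the GSK3326595 libraries. That all 5 were higher in value there was therefore favoured by the filter and adds nothing to the sums. Stellate cell and fibroblast markers summed to 326 to 364 CPM in GSK3326595 and 84.5 to 266 CPM in vehicle, with all 6 of 6 higher in value. No marker of any of the 9 lists was at 0 in all 6 libraries. The part these other cells play in the replication values was not tested.

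The comparison asks whether inhibition of PRMT5 in MYC-driven liver tumors changed expression of the replication machinery. None of the 40 genes passed the test. Their log2 differences, GSK3326595 minus vehicle, lay between -0.28 and 0.54 with a median of 0.13, where the median of all genes tested was 0.03. Values were higher in GSK3326595 for 28 of the 40 and lower for 12, against 53.1% of all genes higher and 46.9% lower. Among the 40, adjusted p-values were no smaller than 0.698 by edgeR and 0.726 by DESeq2. Even without adjustment edgeR gave no member a p under 0.05 (0 of 40 higher and 0 lower), where 5.45% of all genes were higher and 3.81% lower, or 9.26% in either direction. Over all genes edgeR called 0 higher (0%) and 0 lower (0%) at the adjusted threshold, and DESeq2 called 1.10% higher and 0.591% lower, none of them a replication gene. In none of the 40 did the 3 GSK3326595 libraries separate from the 3 vehicle libraries, while the groups did not overlap in 14.4% of all genes, 6.72% higher and 7.66% lower.

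These results bound the size of a change and do not show its absence. The standard errors ran from 0.21 to 0.60 on the log2 scale, with a median of 0.37. The 95% interval of the difference lay within 1 log2 unit of 0 on both sides for 15 of the 40 genes, so a doubling or a halving was outside the interval for these and inside it, in at least 1 direction, for the other 25. Fewer cycling cells and less RNA per cycling cell cannot be told apart in RNA from whole tissue.

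**Figure D1:**
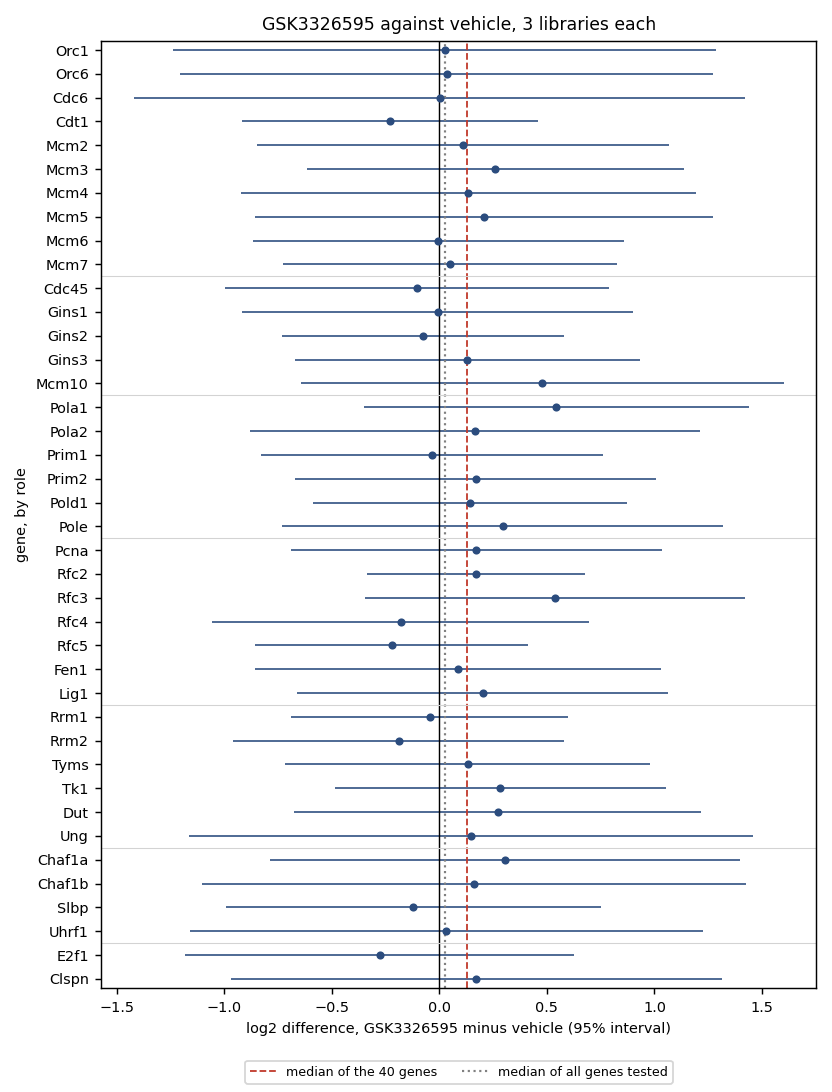
Log2 difference in GSK3326595 against vehicle for each of the 40 genes (points; horizontal axis) with its 95% interval from edgeR's quasi-likelihood test, n = 3 libraries each, grouped by role from licensing at the top to S phase control at the bottom. Every interval includes 0; the dashed line is the median of the 40 genes (0.13) and the dotted line that of all genes tested (0.03).

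The 10 licensing genes had a median log2 difference of 0.041, with 8 higher in value and 2 lower. The 3 of smallest p among them were Cdt1, Mcm3 and Mcm5. Cdt1, which brings the MCM ring to origins and is destroyed once S phase starts, had 19.8, 28.1 and 39.6 CPM in the GSK3326595 libraries and 30.7, 30.5 and 41.4 CPM in the vehicle libraries. It was lowest in GSK3326595 replicate 1, the groups overlapped, and the log2 difference was -0.23 ± 0.29 (SE; adjusted p = 0.858 by edgeR). Mcm3 had 50.6, 52.2 and 93.7 CPM in the GSK3326595 libraries and 48.7, 36.4 and 78.9 CPM in the vehicle libraries. Replicate 3 was the highest library in both groups and vehicle replicate 2 the lowest (log2 difference 0.26 ± 0.37, SE; adjusted p = 0.883 by edgeR). Mcm5 had 59.5, 79.9 and 146 CPM in the GSK3326595 libraries and 67.6, 51.7 and 128 CPM in the vehicle libraries. Replicate 3 was again highest in both groups and vehicle replicate 2 lowest, and vehicle replicate 1 lay above GSK3326595 replicate 1, with a log2 difference of 0.21 ± 0.45 (SE; adjusted p = 0.936 by edgeR).

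Mcm6 (ENSMUSG00000026355.11; chromosome 1, 128331590 to 128359664, minus strand), whose promoter is shown above, had the highest mean CPM of the 40 genes, with 136, 135 and 261 CPM in the GSK3326595 libraries and 167, 123 and 244 CPM in the vehicle libraries. Replicate 3 stood above the others in both groups, and the log2 difference was -0.0056 ± 0.36 (SE; adjusted p = 0.999 by edgeR). Cdc6 (ENSMUSG00000017499.15; chromosome 11, 98907801 to 98923940, plus strand), the loader that opens the way for the MCM ring, was the most variable member within groups, with an SD of 0.90 on the log2 scale. Cdc6 had 15.2, 16.1 and 46.2 CPM in the GSK3326595 libraries and 21.8, 12.5 and 43.1 CPM in the vehicle libraries. The same 2 libraries, GSK3326595 replicate 3 and vehicle replicate 3, were about equally high, and the log2 difference was 0.0010 ± 0.60 (SE; adjusted p = 1 by edgeR) with an interval of -1.42 to 1.42. The remaining subunits Mcm2, Mcm4 and Mcm7 and the origin recognition genes Orc1 and Orc6 had log2 differences between 0.025 and 0.13, each with replicate 3 highest in both groups.

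Among the 5 genes that activate the helicase, 2 were higher in value and 3 lower (median log2 difference -0.0082). Mcm10 had 25.2, 61.8 and 72.0 CPM in the GSK3326595 libraries and 34.1, 23.0 and 57.0 CPM in the vehicle libraries. GSK3326595 replicates 2 and 3 were both above vehicle replicate 3, while GSK3326595 replicate 1 lay among the lower libraries (log2 difference 0.48 ± 0.47, SE; adjusted p = 0.804 by edgeR). Gins3, a GINS subunit and the least counted member, had 2.84, 4.19 and 4.11 CPM in the GSK3326595 libraries and 3.28, 2.38 and 4.51 CPM in the vehicle libraries. Its groups overlapped, with vehicle replicate 3 highest, and the log2 difference was 0.13 ± 0.34 (SE; adjusted p = 0.950 by edgeR). Gins2, another GINS subunit, had 44.5, 27.8 and 54.8 CPM in the GSK3326595 libraries and 41.1, 40.4 and 52.6 CPM in the vehicle libraries, lowest in GSK3326595 replicate 2 (log2 difference -0.078 ± 0.27, SE; adjusted p = 0.963 by edgeR). Gins2 shares 67.3% of its annotated exon bases with Gse1 on the opposite strand, and its value is uncertain because no source used here states the strand setting of the counting. Cdc45 and Gins1 had log2 differences of -0.10 and -0.0082.

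Of the 6 polymerase and primase genes, 5 were higher in value and 1 lower (median log2 difference 0.17). Pola1 (ENSMUSG00000006678.6; chromosome X, 93304767 to 93632155, minus strand), the catalytic subunit of polymerase alpha, had the smallest p of the 40 genes. Pola1 had 37.7, 55.1 and 77.5 CPM in the GSK3326595 libraries and 34.3, 25.5 and 56.8 CPM in the vehicle libraries. Each GSK3326595 library was above the vehicle library of the same rank, yet the groups overlapped, with vehicle replicate 3 above GSK3326595 replicates 1 and 2. Pola1 averaged 56.7 ± 20.0 CPM in GSK3326595 and 38.9 ± 16.1 CPM in vehicle (SD, n = 3 each), and the log2 difference was 0.54 ± 0.38 (SE; adjusted p = 0.698 by edgeR) with an interval of -0.35 to 1.44. Pole, the catalytic subunit of the leading strand polymerase epsilon, had 68.1, 90.3 and 135 CPM in the GSK3326595 libraries and 75.7, 41.4 and 122 CPM in the vehicle libraries. Vehicle replicate 2 stood lowest, and the log2 difference was 0.29 ± 0.43 (SE; adjusted p = 0.888 by edgeR). Prim2, the large primase subunit, had 16.3, 24.1 and 32.4 CPM in the GSK3326595 libraries and 21.4, 14.3 and 29.0 CPM in the vehicle libraries (log2 difference 0.17 ± 0.35, SE; adjusted p = 0.933 by edgeR), again with overlapping groups. Prim1, Pola2 and Pold1 had log2 differences of -0.034, 0.17 and 0.14.

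The clamp, its loader and the enzymes that join Okazaki fragments had 5 of 7 members higher in value and 2 lower (median log2 difference 0.17). Rfc2 to Rfc5 encode subunits of the clamp loader, and no value among them passed the test. Rfc3 had 10.1, 15.8 and 16.8 CPM in the GSK3326595 libraries and 8.47, 6.46 and 14.6 CPM in the vehicle libraries. GSK3326595 replicates 2 and 3 were above every vehicle library and replicate 1 above 2 of them, with a log2 difference of 0.54 ± 0.37 (SE; adjusted p = 0.699 by edgeR). Rfc5 had 47.2, 47.2 and 74.9 CPM in the GSK3326595 libraries and 67.1, 50.3 and 80.1 CPM in the vehicle libraries. Here the highest library was vehicle replicate 3, and the log2 difference was -0.22 ± 0.27 (SE; adjusted p = 0.848 by edgeR). Rfc2 had 37.5, 44.7 and 43.2 CPM in the GSK3326595 libraries and 33.3, 30.9 and 47.3 CPM in the vehicle libraries, the narrowest spread within groups of any member (SD of 0.25 on the log2 scale), and a log2 difference of 0.17 ± 0.21 (SE; adjusted p = 0.855 by edgeR). Pcna, the clamp that holds the polymerases on DNA, had 100.5, 112 and 189 CPM in the GSK3326595 libraries and 106, 79.5 and 170.5 CPM in the vehicle libraries, with replicate 3 high in both groups and a log2 difference of 0.17 ± 0.36 (SE; adjusted p = 0.934 by edgeR). Rfc4, Fen1 and Lig1 had log2 differences of -0.18, 0.088 and 0.20. Fen1 shares 78.8% of its annotated exon bases with an opposite-strand gene, Gm10143, and is likewise uncertain.

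Genes of nucleotide supply and uracil removal had 4 of 6 members higher in value and 2 lower (median log2 difference 0.14). Tk1, the salvage thymidine kinase, had 45.6, 59.8 and 72.3 CPM in the GSK3326595 libraries and 42.7, 32.7 and 70.6 CPM in the vehicle libraries. GSK3326595 replicate 3 and vehicle replicate 3 lay within 2 CPM of each other, and the log2 difference was 0.28 ± 0.32 (SE; adjusted p = 0.840 by edgeR). Dut, which removes dUTP, had 30.7, 41.5 and 77.7 CPM in the GSK3326595 libraries and 38.6, 29.5 and 56.1 CPM in the vehicle libraries (log2 difference 0.27 ± 0.40, SE; adjusted p = 0.890 by edgeR). Rrm2, the small subunit of ribonucleotide reductase that is made anew in each S phase, had 53.3, 77.0 and 127 CPM in the GSK3326595 libraries and 113, 89.1 and 91.4 CPM in the vehicle libraries. Rrm2 was the 1 member of the 40 whose highest vehicle library was not replicate 3 but replicate 1, and its log2 difference was -0.19 ± 0.32 (SE; adjusted p = 0.913 by edgeR). The large subunit Rrm1 had a log2 difference of -0.045, Tyms of 0.13 and Ung, which cuts uracil out of DNA, of 0.15.

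In the group of chromatin and histone supply, 3 of 4 genes were higher in value and 1 lower (median log2 difference 0.097). Chaf1a, the large subunit of the histone chaperone CAF-1, had 24.5, 36.6 and 63.3 CPM in the GSK3326595 libraries and 28.1, 20.4 and 52.1 CPM in the vehicle libraries. Its groups overlapped, with a log2 difference of 0.31 ± 0.46 (SE; adjusted p = 0.893 by edgeR), and 52.5% of its annotated exon bases lie opposite Ubxn6. Its partner Chaf1b had 7.41, 12.7 and 21.9 CPM in the GSK3326595 libraries and 10.5, 6.70 and 20.3 CPM in the vehicle libraries (log2 difference 0.16 ± 0.53, SE; adjusted p = 0.961 by edgeR). Slbp, which binds the stem-loop of histone mRNAs, had 44.5, 33.1 and 78.7 CPM in the GSK3326595 libraries and 50.6, 44.0 and 75.2 CPM in the vehicle libraries, lowest in GSK3326595 replicate 2 (log2 difference -0.12 ± 0.37, SE; adjusted p = 0.957 by edgeR). Uhrf1, which brings DNA methyltransferase to newly copied DNA, had a log2 difference of 0.031.

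The last pair belong to S phase control. E2f1, which encodes a member of the E2F transcription factors, had 10.7, 8.68 and 21.3 CPM in the GSK3326595 libraries and 15.5, 13.5 and 20.3 CPM in the vehicle libraries. GSK3326595 replicates 1 and 2 were below all 3 vehicle libraries and replicate 3 was above them, and the log2 difference was -0.28 ± 0.38 (SE; adjusted p = 0.876 by edgeR), the lowest of the 40. Clspn, which carries the checkpoint signal from stalled forks to CHK1, had 23.3, 22.7 and 56.6 CPM in the GSK3326595 libraries and 25.6, 19.0 and 46.5 CPM in the vehicle libraries and a log2 difference of 0.17 ± 0.48 (SE; adjusted p = 0.954 by edgeR).

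What the 40 genes did share was their order across libraries within each group, which is not a difference between the groups. GSK3326595 replicate 3 was the highest of all 6 libraries for 36 genes and vehicle replicate 3 for the other 4. Vehicle replicate 2 was the lowest vehicle library for all 40, and GSK3326595 replicate 1 the lowest GSK3326595 library for 30. The order of vehicle replicate 2 lowest and vehicle replicate 3 highest held in 39 of the 40 genes and in 26.1% of all genes tested. It was found in 93.3% of the mitosis genes and 83.6% of the other replication genes described below, so it was shared with other cell cycle genes. GSK3326595 replicate 3 was the highest library in 90% of the members, against 93.3% of the mitosis genes, 77.0% of the other replication genes and 21.3% of all genes tested.

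The size of this shared spread exceeded that of the difference between groups. GSK3326595 replicate 3 was above GSK3326595 replicate 1 by a median of 2.09-fold over the 40 genes (range 1.15 to 3.14), and vehicle replicate 3 above vehicle replicate 2 by a median of 2.16-fold (range 1.03 to 3.45). The difference between the groups took up a median of 3.64% of a member's variance over the 6 libraries on the log2 scale, against 16.2% for all genes tested. The SD within groups had a median of 0.53 for the members and 0.39 for all genes.

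**Figure D2:**
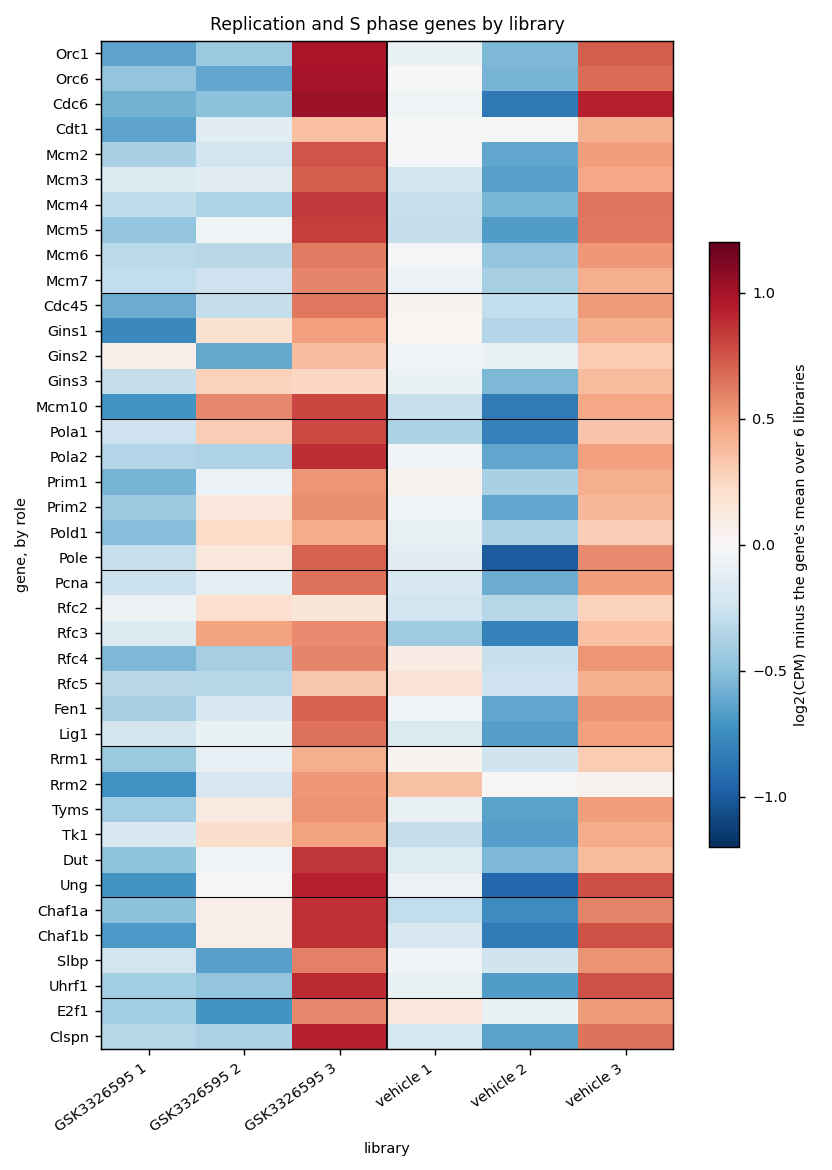
Log2 CPM of each of the 40 genes (rows, grouped by role) in each library (columns), as the difference from the gene's own mean over the 6 libraries; red is higher and blue lower. Replicate 3 is the high column in both groups, and the columns of GSK3326595 replicate 1 and vehicle replicate 2 are mostly blue.

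After each group's mean was taken off, single members followed the mean of the other 39 closely, with a median Pearson r of 0.97 over the 6 libraries and r above 0.9 for 30 of 40. Over all genes tested the median r with the members' mean was -0.064, and 7.67% were above 0.9. These are descriptions over 6 points that share scaling and library. Gins2 (r = 0.60), Rrm2 (0.68) and Rfc2 (0.76) followed the others least. Gins2 and Rfc2 (15.1% of its exon bases, with Lat2) are among 14 members that share exon bases with an opposite-strand gene. Fen1, with 78.8% shared, followed the others most closely (r = 0.995). The part of such sharing in these values was not tested. The median r with the members' mean was 0.93 for the mitosis genes and 0.94 for the other replication genes.

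Markers of other cells and of hepatocytes also differed between the same libraries. The 8 hepatocyte markers summed to 25547, 30208 and 8968 CPM in the GSK3326595 libraries and 28982, 33240 and 16698 CPM in the vehicle libraries. Replicate 3, the highest library for replication genes, thus had the lowest sum in each group. Cyp2e1 alone was not lowest there, with 8.80, 1910 and 125 CPM in GSK3326595 and 5.96, 4.05 and 212 CPM in vehicle. Among the vehicle libraries, replicate 2 was the lowest for replication genes and had the highest sum. Apob, Ttr and Hnf4a were highest in vehicle replicate 1, however, and Cyp2e1 in vehicle replicate 3. Among the GSK3326595 libraries, replicate 1 had the lowest mean of replication genes and replicate 2 the highest hepatocyte sum. Biliary markers, 6 genes of which 5 passed the filter, summed to 26.2, 13.4 and 68.6 CPM in GSK3326595 and 13.1, 15.3 and 27.1 CPM in vehicle. In GSK3326595 replicate 3 most of this sum came from Krt7 (25.7 CPM) and Epcam (27.1 CPM). Krt19 and Sox9 were highest in replicate 2 among the GSK3326595 libraries, and Sox9 and Cldn4 in replicate 2 among the vehicle libraries. Mki67, the proliferation marker, had 471, 474 and 875 CPM in the GSK3326595 libraries and 775, 604 and 837 CPM in the vehicle libraries (log2 difference -0.29 ± 0.30, SE; adjusted p = 0.825 by edgeR). Stellate cell and fibroblast markers, 6 of 6 passing the filter, summed to 326, 329 and 364 CPM in GSK3326595. In vehicle they summed to 84.5, 166 and 266 CPM, and the sum was highest in replicate 3 of each group. In GSK3326595 this came from Col1a1 and Col1a2, whereas Dcn, Lrat, Des and Pdgfrb were highest in another replicate. Neutrophil markers, 3 of 6 passing, summed to 172 CPM in vehicle replicate 2, the lowest vehicle library for all 40 genes, and to between 0.072 and 12.7 CPM in the other 5 libraries. Macrophage and monocyte markers, 6 of 6 passing, summed to 1092, 440 and 499 CPM in GSK3326595 and 334, 567 and 347 CPM in vehicle. Among the GSK3326595 libraries this sum was highest in replicate 1, and among the vehicle libraries in replicate 2. Clec4f was highest in GSK3326595 replicate 2, however, and Adgre1 and Clec4f in vehicle replicate 3. Endothelial markers, 6 of 6 passing, summed to 195, 202 and 99.8 CPM in GSK3326595 and 80.2, 124 and 141 CPM in vehicle. The part of all these markers in the spread of replication genes was not tested.

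A pair of further lists was set beside the members. Of 61 other replication genes, which cover the remaining origin, fork, nucleotide and G1/S genes, 40 were higher in value and 21 lower, with a median log2 difference of 0.084. None passed by edgeR or DESeq2, and 0 of the 61 had an edgeR p under 0.05 without adjustment. The smallest p was that of Samhd1, a phosphohydrolase that breaks down dNTPs, with 43.5, 40.1 and 37.9 CPM in the GSK3326595 libraries and 23.3, 31.0 and 35.7 CPM in the vehicle libraries. Samhd1 was the 1 gene of the 61 whose groups did not overlap, where 14.4% of all genes did not, and its log2 difference was 0.43 ± 0.20 (SE; adjusted p = 0.565 by edgeR). Of 30 mitosis and G2/M genes, 11 were higher in value and 19 lower (median log2 difference -0.057). That median ran from -0.50 without GSK3326595 replicate 3 to 0.17 without GSK3326595 replicate 1 and was 0.042 with no scaling beyond total counts, so its sign depended on the library and the scaling. The median of the other replication genes ran from -0.24 without GSK3326595 replicate 3 to 0.32 without vehicle replicate 3. Ccnb2, a cyclin of mitotic entry, had 25.6, 34.8 and 48.1 CPM in the GSK3326595 libraries and 71.6, 57.5 and 65.8 CPM in the vehicle libraries. Every GSK3326595 library was below every vehicle library, with a log2 difference of -0.85 ± 0.26 (SE; adjusted p = 0.494 by edgeR). Its edgeR p before adjustment, 0.0136, was the 1 value in this list under 0.05, and 0 of the 30 passed by DESeq2.

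The mean log2 CPM of the 40 members was 4.84, 5.12 and 5.91 in the GSK3326595 libraries and 5.16, 4.73 and 5.75 in the vehicle libraries. That of the other replication genes was 4.63, 4.87 and 5.52 in GSK3326595 and 4.92, 4.59 and 5.31 in vehicle, in the same order within each group. The mitosis genes had 5.39, 5.75 and 6.65 in GSK3326595 and 6.13, 5.80 and 6.403 in vehicle. The mitosis mean exceeded the replication mean by 0.56, 0.62 and 0.74 in GSK3326595 and by 0.97, 1.07 and 0.65 in vehicle, so vehicle replicate 3 lay within the range of the GSK3326595 libraries.

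**Figure D3:**
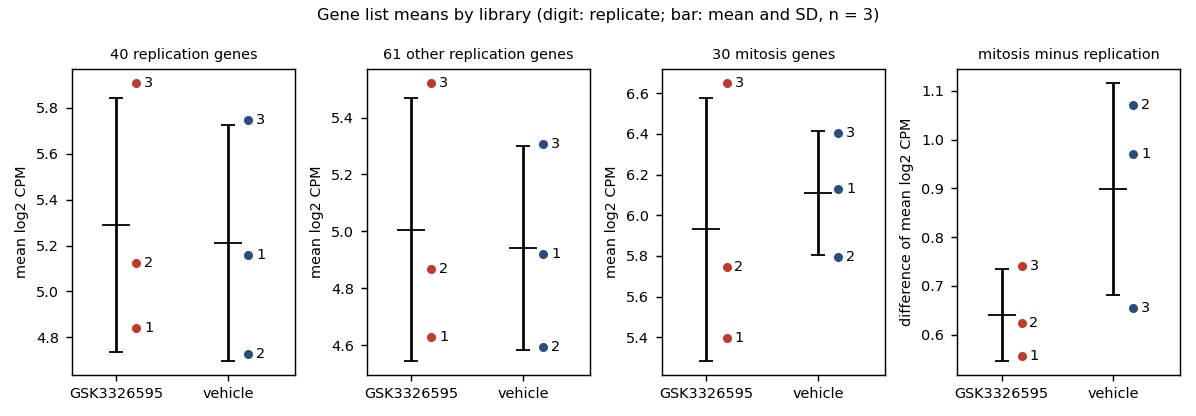
Mean log2 CPM of the 40 replication genes, the 61 other replication genes and the 30 mitosis genes in each library (points, labelled with the replicate number), and the mitosis mean minus the replication mean; bars give the mean and SD of 3 libraries. The groups overlap in all 4 panels, and replicate 3 is the highest library of its group in the first 3.

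Levels between genes were compared per length, as TPM, transcripts per 1000000, over the union of annotated exons. That length counts the exons of every annotated transcript and can exceed that of the transcripts present, which lowers the TPM of such a gene. The order below carries this limit. Pcna was highest with a mean of 103 TPM over the 6 libraries, followed by Mcm6 (74.7 TPM), Rrm2 (64.1 TPM), Mcm7 (57.0 TPM) and Uhrf1 (50.8 TPM). The 6 subunits of the MCM ring, which assemble in equal numbers, lay between 31.5 TPM for Mcm3 and 74.7 TPM for Mcm6. At the low end were Rfc3 (6.55 TPM), Chaf1b (5.59 TPM) and Gins3 (2.55 TPM), and the median member had 16.7 TPM. A single gene varied up to 3.70-fold between its lowest and highest library (median 2.47-fold). The ranges over the 6 libraries overlapped for 39 of the 39 pairs of neighbours in this order. The E2F factor E2f1 had 9.27 TPM and the loader Cdc6 9.78 TPM, both below the median.

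**Figure D4:**
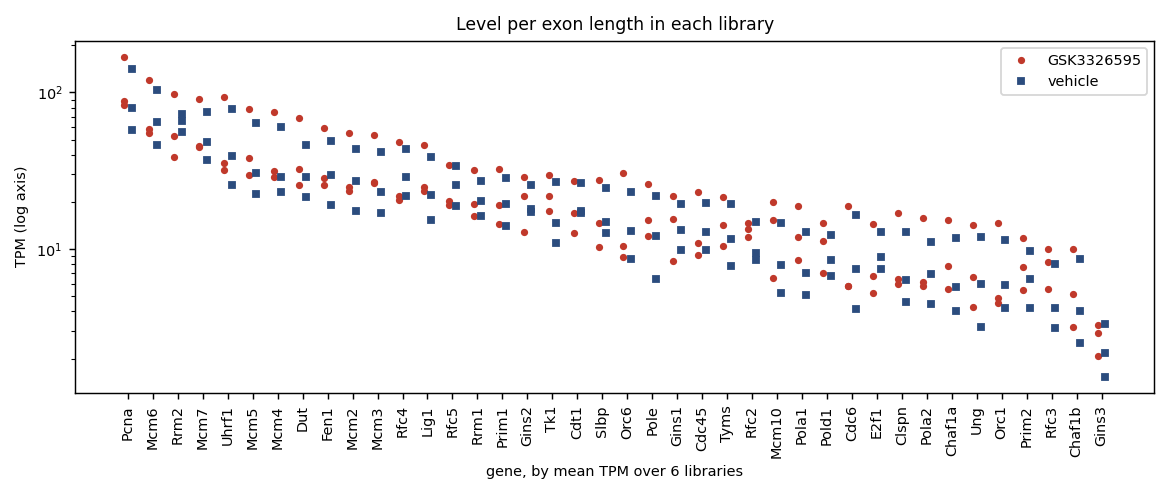
TPM of each of the 40 genes (log axis) in the 3 GSK3326595 libraries (circles) and the 3 vehicle libraries (squares), ordered by the mean over all 6. Levels fall from 103 TPM for Pcna to 2.55 TPM for Gins3, and the symbols of the groups overlap for every gene.

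The direction of the small median difference was set by single libraries. Dropping vehicle replicate 3 gave 0.50 and dropping GSK3326595 replicate 3 gave -0.30, and these are the 2 libraries in which replication genes were highest. The median was 0.31 or 0.30 with GSK3326595 replicate 1 or 2 dropped, 0.056 with vehicle replicate 1 dropped and -0.13 with vehicle replicate 2 dropped. Between 7 and 36 of the 40 genes were higher in GSK3326595 across the fits with 1 library left out, against 28 with all 6. With no scaling beyond total counts 33 were higher, and the median of all genes was 0.12.

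**Figure D5:**
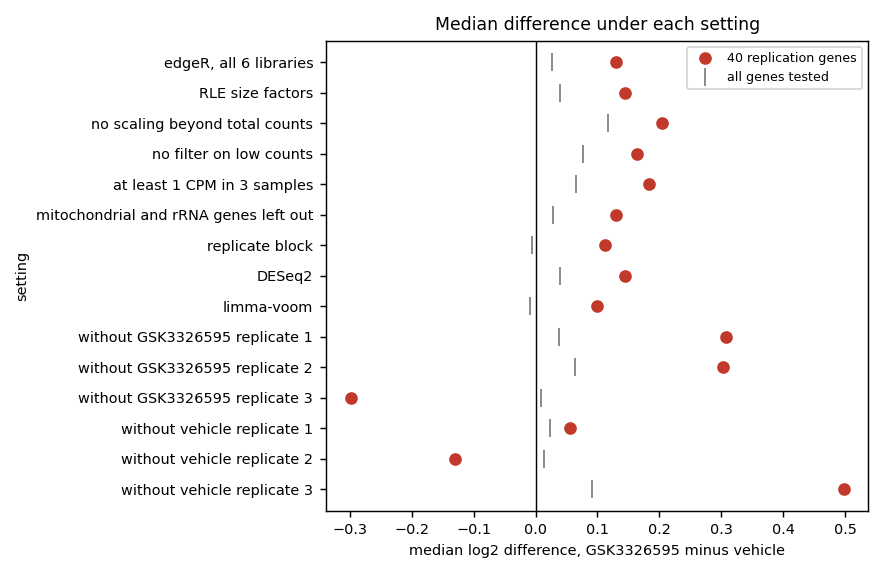
Median log2 difference of the 40 replication genes (circles) and of all genes tested (bars) under each setting; positive values are higher in GSK3326595. With all 6 libraries the median stays between 0.10 and 0.21, while leaving out 1 library moves it between -0.30 and 0.50.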

How the data were processed

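Stranded total RNA libraries were made from liver RNA, per the labels' protocols. The authors deposited expected counts for each gene, RSEM's estimates before any scaling for depth. The submitters' processing notes name cutadapt, STAR, Picard, RSEM and the build mm10, and other settings (versions, annotation release, strand) are not given in the sources used here. Not whole (tolerance 0) were 12.3% of the deposited values, and 12 of the 40 members had such values.

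Values were rounded to whole numbers. The filter filterByExpr (minimum count 10) chose the genes, TMM set the scale, and edgeR 4.0.16 (R 4.3.3) ran its quasi-likelihood test, two-sided, on GSK3326595 against vehicle. P-values were adjusted by Benjamini-Hochberg over all genes, with a threshold of 0.05. DESeq2 1.42.0 and limma 3.58.1 (voom) served as alternatives. Each SE was obtained from the F statistic as the size of the log2 difference over the root of F, and each 95% interval from the residual plus prior degrees of freedom. A prior count of 2 went into log2 CPM. Exon lengths and coordinates (1-based) came from GENCODE M21, which matched 47224 genes.

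The members and all lists were chosen with earlier results of these data known. Values per library are given for the 3 members of smallest p in each of 7 role groups, the members of highest and lowest mean CPM and of widest and narrowest spread, the gene of smallest p in each other list, and Prmt5, Myc, Hnf4a and Mki67. Pcna was added after its values were seen. The other alternatives were RLE size factors, no scaling, other filters, removal of mitochondrial and rRNA genes, a block for replicate number, and each library dropped in turn.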

Additional observations from a re-analysis of the deposited data

How the results depend on the processing

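Over the 14 alternatives no replication gene had an adjusted p under 0.05; the smallest was 0.363. Unadjusted counts over all genes were 927 higher and 648 lower, against 1142 and 430 with no scaling beyond total counts and 1547 and 715 with no filter on low counts. With 1 library dropped, higher genes numbered 347 (vehicle replicate 1) to 1629 (GSK3326595 replicate 3), and lower genes 241 (vehicle replicate 2; 250 for vehicle replicate 1) to 961 (GSK3326595 replicate 1). At the adjusted threshold DESeq2 had 186 genes higher and 100 lower, where edgeR and limma-voom called 0 and 0; the cause was not tested. Of the 40 replication genes, 0 to 2 were higher and 0 to 2 lower at an unadjusted p under 0.05 without each library, the 2 higher without vehicle replicate 3, where 6.10% of all genes were higher, and the 2 lower without GSK3326595 replicate 3, where 3.72% were lower. The number whose groups did not overlap was 0 to 5 higher and 0 to 5 lower. The 5 higher came without vehicle replicate 3, where 13.3% of all genes separated upwards, and the 5 lower without GSK3326595 replicate 3, where 14.6% separated downwards, so both counts were near the background. On a scale added after seeing the data, with the mean of the other 39 members subtracted in each library, 3 members separated upwards and 3 downwards. With the mean of the members subtracted from every gene, 2.00% of all genes separated upwards and 1.28% downwards. The subtraction removes the spread that members share and adds it to genes that lack it. It also favours a balance of directions among the members, so nothing is read from these counts. Deviations of same-numbered libraries correlated at -0.07, 0.07 and 0.32, and GSK3326595 replicate 1 correlated best with vehicle replicate 2 (0.32). Correlations among so few libraries cannot decide whether the replicate numbers pair the samples. With a replicate block the unadjusted counts were 638 higher and 779 lower and the median of the 40 genes 0.11.

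Differences close to 0 changed sign. Cdc6 was -0.050 by limma-voom and -0.018 under the replicate block, and Gins2 0.014 with no scaling beyond total counts. Mcm6 was 0.012 by DESeq2 and with RLE size factors, 0.050 with at least 1 CPM in 3 samples, 0.036 with no filter and 0.079 with no scaling beyond total counts. Without each library in turn, 15 of the 28 named genes changed sign. Their log2 differences ran from -0.70 to 0.65 for Cdc6, -0.12 to 0.82 for Chaf1a, -0.30 to 0.76 for Chaf1b, -0.38 to 0.67 for Clspn and -0.18 to 0.60 for Dut. They ran from -0.74 to 0.018 for E2f1, -0.29 to 0.20 for Gins2, -0.072 to 0.43 for Gins3, -0.071 to 0.67 for Mcm3 and -0.22 to 0.72 for Mcm5. They ran from -0.38 to 0.34 for Mcm6, -0.018 to 0.79 for Pole, -0.075 to 0.49 for Prim2, -0.57 to 0.062 for Rrm2 and -0.53 to 0.19 for Slbp.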

Other observations

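Replication-dependent histone genes, whose mRNAs lack a poly(A) tail and are made in S phase, can be read in total RNA libraries. The 65 protein-coding genes of the histone clusters, a list taken by symbol after the data were seen, summed to 1842, 2239 and 3905 CPM in the GSK3326595 libraries and 3123, 2102 and 3845 CPM in the vehicle libraries. The order within each group was that of the 40 replication genes, with replicate 3 highest in both groups, GSK3326595 replicate 1 and vehicle replicate 2 lowest, and the groups overlapping. Cenpa, the centromeric histone variant, was singled out after its values were seen because it and Ccnb2 were the 2 mitosis genes whose groups did not overlap, both lower, a share of the 30 below the 7.66% of all genes that were lower without overlap. Cenpa had 35.4, 31.4 and 51.1 CPM in the GSK3326595 libraries and 51.2, 53.0 and 58.4 CPM in the vehicle libraries, with GSK3326595 replicate 3 and vehicle replicate 1 nearly level, and a log2 difference of -0.46 ± 0.22 (SE; adjusted p = 0.566 by edgeR).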
